A study of Mus musculus with 9 samples.

Results

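The genes described here encode the MLL (KMT2A) histone methyltransferase, its partner menin, and the DOT1L histone methyltransferase with the proteins that join them on chromatin. The list holds 10 genes, Kmt2a, Men1, Dot1l, Mllt1, Mllt3, Mllt10, Psip1, Ash1l, Wdr5 and Setd1a, and every array probe that the platform annotation assigns to 1 of them was taken. The annotation named 24 probes in 9 of these genes, of 45281 probes on the array, and no probe of Ash1l was named. A probe was kept for testing where its detection p-value, which sets its brightness against the array's negative controls, was under 0.01 on at least 3 of the 9 arrays. This left 13 probes in 8 of the listed genes, of 15870 kept probes in 9136 genes. All 13 were detected on every array, so none was kept through the brighter group alone. Another 10 probes, of Men1, Mllt1, Mllt3, Mllt10 and Psip1, were detected on no array, and 1 Mllt10 probe was detected on 2 of 9.

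Illumina mouse arrays were hybridised with biotin-labelled total RNA from C57/Bl6 bone marrow that was enriched for c-kit, a receptor of progenitor cells, transduced with a retrovirus and cultured for 10 days. The medium of every group held 10 ng/µl of the cytokines IL-3 and IL-6 and 20 ng/µl of SCF, the ligand of c-kit. The 3 groups, of 3 replicates each, carried MN1-TEL del DBD (called del DBD hereafter), MN1-TEL or MN1. MN1 is a transcriptional coactivator that transforms mouse bone marrow, and MN1-TEL joins it to TEL, an ETS-family transcription factor. DBD commonly stands for DNA-binding domain, and the labels do not say which residues the deletion removes. All 3 groups therefore express a form of MN1, and no untransduced cells are used here. The labels do not say whether the replicates were separate transductions, so a p-value here measures the spread between arrays that may be technical replicates, and their small number limits the precision.

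MLL methylates histone H3 at lysine 4 (H3K4) near promoters and is held there by menin and by LEDGF, the product of Psip1. DOT1L methylates H3K79, another lysine of the same histone, in transcribed genes, and is brought there by the proteins that Mllt1, Mllt3 and Mllt10 encode, which also join MLL in leukemic fusion proteins. In bone marrow progenitors this machinery is known for keeping the Hoxa cluster and Meis1 expressed.

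TEL recognises the ETS core GGAA on DNA, and 3 promoters are shown, that of Mllt3 as the member with the largest difference, and those of Kmt2a and Mllt1 as the members with a called difference whose promoter held the searched letters. They run from 250 bases before to 50 bases after the annotated start, come from RefSeq (GRCm38.p6) and are written 5′ to 3′ on the strand of the gene. Capitals mark CCGGAA or CCGGAAGT on that strand and their reverse complements TTCCGG or ACTTCCGG from the other strand.
Mllt3, chr4:88033358-88033657, minus strand: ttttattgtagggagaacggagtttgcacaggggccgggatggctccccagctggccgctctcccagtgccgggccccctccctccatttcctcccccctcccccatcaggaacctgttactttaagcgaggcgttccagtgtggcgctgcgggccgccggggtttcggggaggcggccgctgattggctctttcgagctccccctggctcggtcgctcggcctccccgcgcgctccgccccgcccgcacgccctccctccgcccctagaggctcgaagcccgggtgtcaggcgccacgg
Kmt2a, chr9:44881240-44881539, minus strand: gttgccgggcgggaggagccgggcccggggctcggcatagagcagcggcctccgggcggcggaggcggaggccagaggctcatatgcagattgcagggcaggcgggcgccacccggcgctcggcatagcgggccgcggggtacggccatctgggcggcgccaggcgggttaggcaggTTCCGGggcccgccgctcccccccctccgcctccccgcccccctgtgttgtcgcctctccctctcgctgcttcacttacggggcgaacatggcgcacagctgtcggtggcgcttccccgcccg
Mllt1, chr17:56935339-56935638, minus strand: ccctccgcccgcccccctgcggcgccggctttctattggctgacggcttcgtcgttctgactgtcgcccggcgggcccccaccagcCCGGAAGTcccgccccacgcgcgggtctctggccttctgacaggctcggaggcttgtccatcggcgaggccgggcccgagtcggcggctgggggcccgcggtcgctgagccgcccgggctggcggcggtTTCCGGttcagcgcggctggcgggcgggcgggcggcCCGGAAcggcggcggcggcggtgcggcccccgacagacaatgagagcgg
The promoter table held 13 starts for 8 of the listed genes. CCGGAA was found on either strand in 3 of these 13 promoters, against 14.9% of 32851 promoters of the same length in the table. The Kmt2a promoter had it 73 bases before the start on the opposite strand, and the Dot1l promoter had it 221 bases before the start on the opposite strand. The Mllt1 promoter had it 164 bases before the start, again 35 bases before the start on the opposite strand, and 2 bases after the start. The longer CCGGAAGT was found only at that first Mllt1 position, where it contains the shorter match, against 3.89% of all promoters in the table. Neither of the 2 Mllt3 promoters and none of the 3 Men1 promoters in the table held the letters CCGGAA. The shorter core GGAA was not searched for, and the Mllt3 promoter printed above does hold it. These matches describe letters in a window, and no binding was measured.

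Between 14249 and 15273 probes were detected per array. Mean raw intensity was 875 ± 20.8 in del DBD, 943 ± 26.5 in MN1-TEL and 667 ± 30.8 in MN1 (SD, n = 3 each), so the result depends on how arrays are set to a common scale. Values below are log2 intensities after quantile normalization unless another scaling is named. With arrays set to equal medians over all probes instead, the median log2 fold change of all kept probes moved to 0.41 in MN1-TEL against MN1, against -0.05 with quantile normalization. The same change moved it to 0.36 in del DBD against MN1, against -0.03, and to -0.06 in del DBD against MN1-TEL, against 0.02. MN1-TEL replicate 2 stood apart, with correlations across probes within its group as low as 0.962, while those within del DBD and within MN1 were at least 0.990. Where leaving out an array or changing the scaling moved a call at the brightest probe of a member, values are given beside the gene.

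Summed neutrophil and monocyte markers were higher in MN1-TEL and del DBD than in MN1, and such sums follow their brightest genes. Summed over the genes kept, neutrophil markers (11 of 12) reached 93500 to 99800 in del DBD, 125000 to 139000 in MN1-TEL and 7390 to 8560 in MN1, on the linear normalized scale. Monocyte markers (9 of 10) reached 25500 to 30500 in del DBD, 46700 to 53300 in MN1-TEL and 6320 to 7530 in MN1. Gene by gene, limma's test called 10 of 11 neutrophil markers higher in MN1-TEL and 9 in del DBD against MN1 (adjusted p under 0.05). Of the 9 monocyte markers, 7 and 8 were called higher, while Ccr2 was lower in both (-2.92 and -1.94). Of all genes, 24.2% and 16.7% were called higher. Only 4 of the 11 neutrophil markers were detected on all MN1 arrays. Progenitor markers (8 of 10) reached 33500 to 39300 in del DBD, 39600 to 59800 in MN1-TEL and 58300 to 60300 in MN1, and both Kit and Cd34 were detected on every array. Against MN1, 3 progenitor markers were called higher and 4 lower in MN1-TEL, and 2 higher and 5 lower in del DBD. Kit itself was higher in MN1-TEL (0.73) and lower in del DBD (-1.5) than in MN1. Mast cell and basophil markers (9 of 9) reached 72500 to 84800, 85200 to 115000 and 91100 to 99900 in del DBD, MN1-TEL and MN1. Genes of this list went both ways, with 2 called higher and 5 lower in del DBD against MN1-TEL. Erythroid and megakaryocyte markers (6 of 9) reached 3620 to 4410, 2680 to 4770 and 7010 to 10000, and stroma and endothelium markers (2 of 8) 1270 to 2060, 645 to 1560 and 790 to 906, in the same order of groups. None of the 8 B and T lymphoid markers was kept. The part of these cell types in the results below was not tested, and in such bulk RNA fewer cells of a type and less RNA per cell cannot be told apart.

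Mllt3 was the member with the largest difference in both comparisons against MN1, and it was lower in both. Kmt2a, at its brighter probe, was also lower in both. Men1 was lower in MN1-TEL than in either other group at its brighter probe, while its second probe passed in neither comparison. Mllt1 was lower in del DBD than in either other group. The falls of Mllt3 held under every scaling, while the other differences against MN1 depended on it. The call of Men1 between del DBD and MN1-TEL was also lost with median scaling. In MN1-TEL against MN1, 3 of 8 genes passed an adjusted p of 0.05 in limma's test (37.5%), all lower, against 52.2% of all genes (24.2% higher and 28.0% lower). In del DBD against MN1, 3 of 8 passed, all lower, against 34.0% of all genes (16.7% higher and 17.2% lower). In del DBD against MN1-TEL, 3 of 8 passed, 2 higher and 1 lower, against 26.0% of all genes (13.2% higher and 12.9% lower). By probe, 6, 5 and 5 of the 13 passed in these 3 comparisons, against 48.8%, 31.4% and 23.4% of all kept probes. The median log2 fold change of the 8 genes was -0.18, -0.23 and 0.25 in the same order, beside -0.06, -0.04 and 0.02 over all genes. These shares lie below, near and above the share of all genes, and nothing particular to the list is read from them. The first 2 comparisons share the MN1 arrays, and each group enters 2 comparisons.

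**Figure D1:**
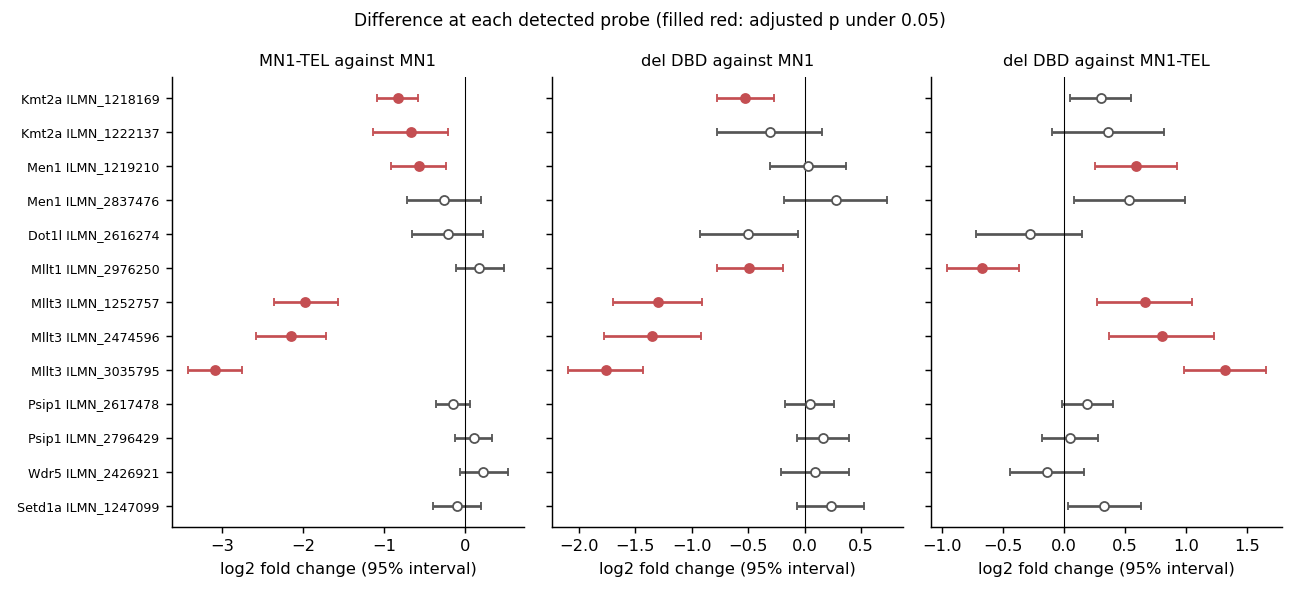
Log2 fold change with its 95% interval at each of the 13 kept probes, for MN1-TEL against MN1 (left), del DBD against MN1 (middle) and del DBD against MN1-TEL (right), with red filled points at an adjusted p under 0.05. The 3 Mllt3 probes lie between -3.09 and -1.97 in MN1-TEL against MN1, to the left of every other probe.

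Kmt2a encodes MLL itself. Its brighter probe read 10.62, 10.43 and 10.73 in del DBD, 10.22, 10.28 and 10.38 in MN1-TEL, and 11.04, 11.14 and 11.19 in MN1. The groups did not overlap, with MN1 highest, del DBD between and MN1-TEL lowest. The log2 fold change was -0.83 (SE 0.11, adjusted p = 0.000316) in MN1-TEL against MN1, which is 1.78-fold lower, and 26.3% of all genes changed by at least as much in either direction. It was -0.53 (SE 0.11, adjusted p = 0.00707) in del DBD against MN1. The 0.30 between del DBD and MN1-TEL did not pass (adjusted p = 0.0849, 95% interval 0.05 to 0.55). The raw intensities of this probe were 1675.6 to 1943.8 in del DBD, 1560.7 to 1737.6 in MN1-TEL and 1627.1 to 1796.5 in MN1, ranges that overlap. With median scaling the fall was -0.34 in MN1-TEL (adjusted p = 0.031) and -0.16 in del DBD (adjusted p = 0.284) against MN1, and with no scaling the values were -0.06 (adjusted p = 0.643) and 0.12, so the fall of Kmt2a was relative to the other genes of the array. Over all 23 alternatives its adjusted p ran from 5.98e-05 to 0.643 in MN1-TEL and from 0.00188 to 0.392 in del DBD against MN1. The dimmer probe gave -0.67 in MN1-TEL against MN1 (adjusted p = 0.0225), which no longer passed when MN1 replicate 1, MN1 replicate 2 or MN1-TEL replicate 3 was left out (adjusted p = 0.0798, 0.0546 and 0.0737) or with median scaling (-0.14, adjusted p = 0.599), and which turned to 0.14 with no scaling. It was called in neither comparison of del DBD, except against MN1 without del DBD replicate 1 (-0.54, adjusted p = 0.0418).

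Men1 encodes menin, the scaffold that binds MLL and LEDGF. Its brighter probe read 10.56, 10.49 and 10.61 in del DBD, 10.02, 9.68 and 10.17 in MN1-TEL, and 10.45, 10.74 and 10.39 in MN1. The 3 MN1-TEL arrays lay below all others, while del DBD and MN1 overlapped. The log2 fold change of MN1-TEL against MN1 was -0.57 (SE 0.15, adjusted p = 0.0122), and in del DBD against MN1-TEL it was 0.59 (SE 0.15, adjusted p = 0.0201). The difference of del DBD from MN1 was 0.03, with a 95% interval of -0.31 to 0.37. The second Men1 probe had the same signs, at -0.26 (adjusted p = 0.322) and 0.53 (adjusted p = 0.0876), and passed in neither, except in del DBD against MN1-TEL without MN1-TEL replicate 3 (0.73, adjusted p = 0.0238). Its sign in MN1-TEL against MN1 turned with median scaling (0.29, adjusted p = 0.267) and with no scaling (0.57, adjusted p = 0.0389). In del DBD against MN1 this probe passed as higher with median scaling (0.72, adjusted p = 0.0203), and the brighter probe was at 0.44 with median scaling (adjusted p = 0.064) and passed as higher with no scaling (0.72, adjusted p = 0.006). The fall in MN1-TEL against MN1 was lost with the mean of both probes (adjusted p = 0.059), without MN1 replicate 2 (adjusted p = 0.0508) and with median scaling (-0.04, adjusted p = 0.844), and the value was 0.23 with no scaling. The rise in del DBD against MN1-TEL was lost without del DBD replicate 1 (adjusted p = 0.058) or replicate 3 (adjusted p = 0.0712), and with median or no scaling (0.49 in both, adjusted p = 0.0724 and 0.0805).

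Psip1 encodes LEDGF, which tethers menin and MLL to chromatin methylated at H3K36. Its brighter probe read 12.24, 12.27 and 12.24 in del DBD, 11.95, 12.07 and 12.14 in MN1-TEL, and 12.18, 12.21 and 12.20 in MN1. The 3 MN1-TEL arrays were the lowest and the 3 del DBD arrays the highest. No comparison passed, with 95% intervals of -0.36 to 0.07 in MN1-TEL against MN1, -0.17 to 0.26 in del DBD against MN1 and -0.02 to 0.40 in del DBD against MN1-TEL. The second Psip1 probe, at 11.44 to 11.64, 11.41 to 11.57 and 11.35 to 11.36 in del DBD, MN1-TEL and MN1, passed in none either. Against MN1, the brighter probe passed in MN1-TEL with median scaling over kept probes (-0.34, adjusted p = 0.0411), and the second passed as higher with median scaling over all probes (0.55 in MN1-TEL and 0.47 in del DBD). With no scaling the brighter probe was higher than in MN1, at 0.51 in MN1-TEL (adjusted p = 0.00366) and 0.55 in del DBD (adjusted p = 0.00289).

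Wdr5 encodes a core subunit that all MLL and SET1 complexes share. It read 10.93, 10.89 and 10.53 in del DBD, 10.94, 10.81 and 11.02 in MN1-TEL, and 10.79, 10.67 and 10.61 in MN1. MN1-TEL lay above MN1 without overlap, and the del DBD arrays overlapped both. The differences were 0.23 in MN1-TEL against MN1 (95% interval -0.06 to 0.53, adjusted p = 0.172), 0.09 in del DBD against MN1 (-0.21 to 0.39) and -0.14 in del DBD against MN1-TEL (-0.44 to 0.16). Setd1a encodes an H3K4 methyltransferase of the related SET1 complexes. It read 10.24, 10.19 and 10.18 in del DBD, 9.92, 9.61 and 10.09 in MN1-TEL, and 9.91, 10.06 and 9.93 in MN1. The del DBD arrays lay above all others, and MN1-TEL and MN1 overlapped. The difference of 0.33 in del DBD against MN1-TEL did not pass (95% interval 0.03 to 0.63, adjusted p = 0.106), except without MN1-TEL replicate 3 (0.44, adjusted p = 0.0438). The difference was 0.23 in del DBD against MN1 (-0.07 to 0.53) and -0.10 in MN1-TEL against MN1 (-0.39 to 0.20). Against MN1, both genes passed as higher with median scaling, Wdr5 at 0.75 in MN1-TEL and 0.49 in del DBD, and Setd1a at 0.46 in MN1-TEL, where its sign turned, and 0.68 in del DBD. They also passed as higher with no scaling, Wdr5 at 1.03 and 0.77 and Setd1a at 0.73 and 0.96 in MN1-TEL and del DBD.

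Dot1l encodes the H3K79 methyltransferase. It read 8.76, 8.71 and 8.86 in del DBD, 9.37, 8.59 and 9.23 in MN1-TEL, and 9.44, 9.18 and 9.21 in MN1. The del DBD arrays lay below all MN1 arrays, and MN1-TEL replicate 2 was the lowest of the 9. No comparison passed, at -0.50 in del DBD against MN1 (SE 0.19, adjusted p = 0.0787), -0.28 in del DBD against MN1-TEL (adjusted p = 0.332) and -0.21 in MN1-TEL against MN1 (adjusted p = 0.384). Without MN1-TEL replicate 2, both comparisons of del DBD passed, at -0.50 against MN1 (adjusted p = 0.0061) and -0.52 against MN1-TEL (adjusted p = 0.0113). Weights per array gave the same calls, at -0.49 (adjusted p = 0.0077) and -0.46 (adjusted p = 0.0459). A fit of del DBD and MN1 alone also called the gene (adjusted p = 0.0079). With median scaling the difference between del DBD and MN1 was -0.01 (adjusted p = 0.984), and with no scaling it was 0.27. The difference between MN1-TEL and MN1 turned to 0.34 with median scaling (adjusted p = 0.202) and to 0.61 with no scaling (adjusted p = 0.0285).

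**Figure D2:**
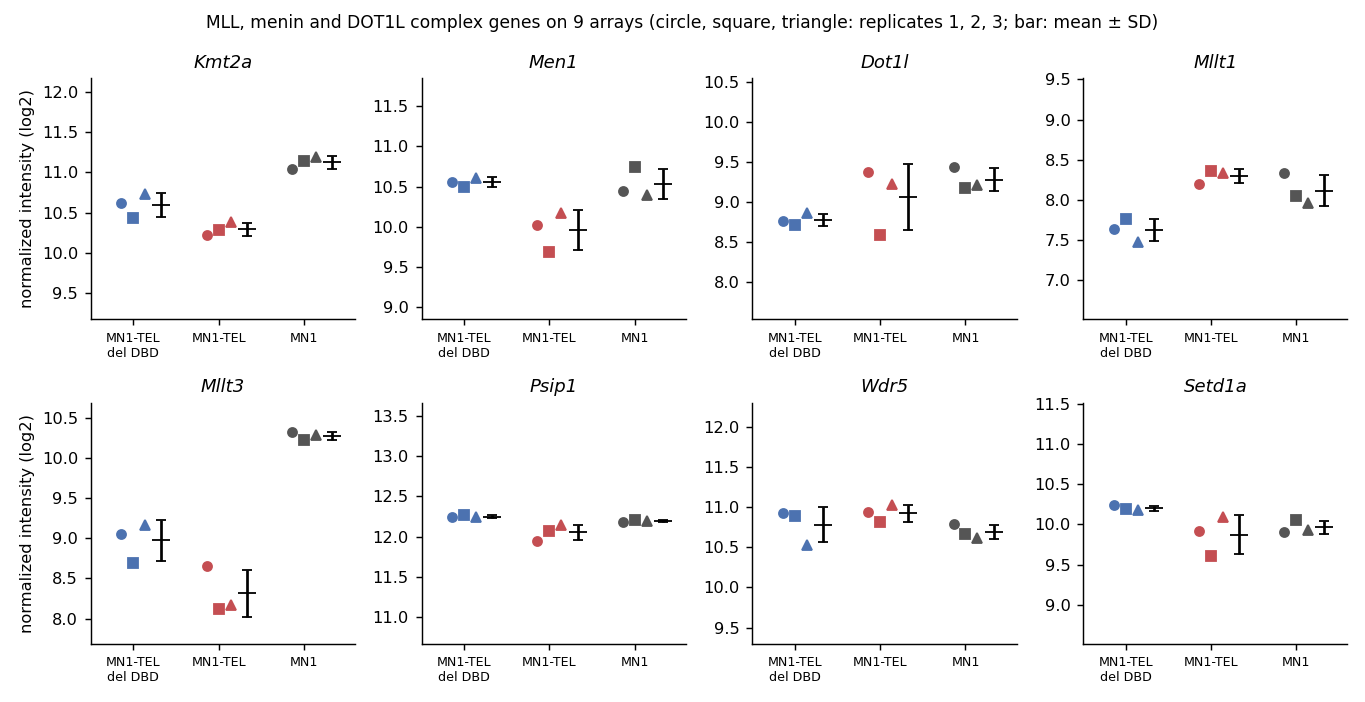
Normalized log2 intensity of the 8 kept genes at their brighter probe on each array, with del DBD, MN1-TEL and MN1 from left to right, points for replicates and bars for mean ± SD (n = 3). Mllt3 shows MN1 between 10.22 and 10.32 and every other array at or below 9.17, while the Dot1l panel shows MN1-TEL replicate 2 at 8.59, apart from its group.

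Mllt3 encodes AF9, a YEATS-domain protein that reads acylated histone H3 and recruits DOT1L and the elongation machinery, and which is known to maintain human blood stem cells. The probe with the highest mean read 9.06, 8.69 and 9.17 in del DBD, 8.65, 8.12 and 8.17 in MN1-TEL, and 10.32, 10.22 and 10.29 in MN1. The 3 groups did not overlap, with MN1 far above and MN1-TEL lowest. The log2 fold change of MN1-TEL against MN1 was -1.97 (SE 0.17, adjusted p = 2.29e-05), or 3.91-fold lower, and 6.88% of all genes changed by at least as much. The del DBD arrays gave -1.30 (SE 0.17, adjusted p = 0.000575) against MN1, or 2.47-fold lower, and 8.27% of all genes changed by at least as much. The value between del DBD and MN1-TEL was 0.66 (SE 0.17, adjusted p = 0.0235), or 1.58-fold higher.

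The 2 other kept Mllt3 probes gave the same order of groups. Probe ILMN_2474596 read 8.99, 8.79 and 8.44 in del DBD, 8.08, 8.09 and 7.65 in MN1-TEL, and 10.08, 9.87 and 10.32 in MN1. Probe ILMN_3035795 read 8.53, 8.40 and 8.70 in del DBD, 7.50, 7.06 and 7.11 in MN1-TEL, and 10.36, 10.17 and 10.41 in MN1. At neither probe did any groups overlap. The fall in MN1-TEL against MN1 was -2.15 (adjusted p = 2.32e-05) and -3.09 (adjusted p = 6.02e-07) at these probes, and the fall in del DBD against MN1 was -1.35 (adjusted p = 0.000813) and -1.76 (adjusted p = 3.34e-05). The difference of del DBD against MN1-TEL was 0.80 (adjusted p = 0.0153) and 1.32 (adjusted p = 0.000368). The sizes thus differed between probes of this gene, from 3.91-fold to 8.49-fold in MN1-TEL against MN1, and which transcripts each probe covers was not tested. Raw intensities at ILMN_3035795 were 516.3 to 584.8 in del DBD, 267.6 to 350.9 in MN1-TEL and 917.6 to 1017.4 in MN1, so its order stands unscaled. The raw ranges at ILMN_2474596 did not overlap either, at 507.9 to 716.4, 386.4 to 461.7 and 769.5 to 922.9 in the same order. At the probe with the highest mean, del DBD (605.2 to 756.1) and MN1-TEL (432.4 to 625.2) overlapped in raw intensity, both below MN1 (902.6 to 993.9).

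**Figure D3:**
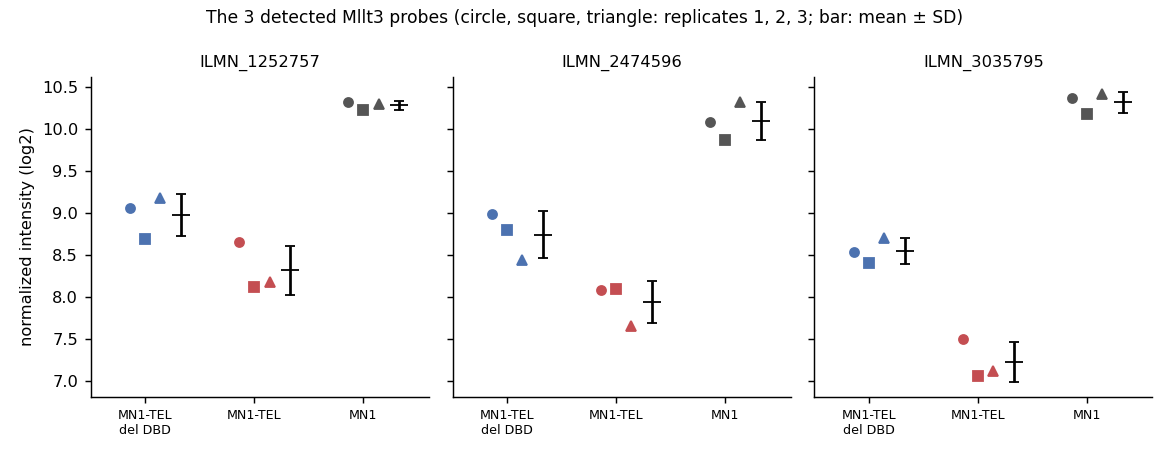
Normalized log2 intensity of the 3 kept Mllt3 probes on each array, with del DBD, MN1-TEL and MN1 from left to right, points for replicates and bars for mean ± SD (n = 3). At each probe the MN1 arrays are highest, at 9.87 or more, the del DBD arrays lie between and the MN1-TEL arrays are lowest.

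Both falls of Mllt3 against MN1 kept their sign and call in all 23 alternatives at the probe with the highest mean and in all 21 that apply to the other probes, with no scaling included (-1.15 in MN1-TEL and -0.55 in del DBD). The rise in del DBD against MN1-TEL kept its call in all 21 alternatives at ILMN_3035795. At the probe with the highest mean it did not pass when MN1-TEL replicate 3 was left out (adjusted p = 0.0687), nor without del DBD replicate 1 (adjusted p = 0.0745) or del DBD replicate 3 (adjusted p = 0.0912), nor in a fit of these groups alone (adjusted p = 0.0667), and its adjusted p ran from 0.00095 to 0.0912 over all 23 alternatives. At ILMN_2474596 it was lost without del DBD replicate 1 (adjusted p = 0.0562) or replicate 2 (adjusted p = 0.0532).

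Mllt1 encodes ENL, the close relative of AF9 in the same YEATS family. Its kept probe read 7.64, 7.76 and 7.48 in del DBD, 8.20, 8.36 and 8.33 in MN1-TEL, and 8.33, 8.05 and 7.96 in MN1. The del DBD arrays lay below all others, and MN1-TEL and MN1 overlapped. The order of the groups thus differed from that of Mllt3, where MN1-TEL was lowest. The log2 fold change in del DBD against MN1-TEL was -0.67 (SE 0.13, adjusted p = 0.00612), or 1.59-fold lower, and it held in all 23 alternatives. The difference from MN1 was -0.49 in del DBD (SE 0.13, adjusted p = 0.0207), which was lost without MN1 replicate 1 (adjusted p = 0.0791), del DBD replicate 1 (adjusted p = 0.0512) or del DBD replicate 3 (adjusted p = 0.0805), and its sign turned with median scaling (0.04, adjusted p = 0.834, the highest of the 23 alternatives, where the lowest was 0.00742) and with no scaling (0.32). The 0.18 between MN1-TEL and MN1 did not pass (95% interval -0.11 to 0.48), though it did with median scaling (0.78, adjusted p = 0.00149) and with no scaling (1.05, adjusted p = 0.000179). Mllt10 encodes AF10, a cofactor of DOT1L. Its best probe was detected on 2 of 9 arrays, with values of 4.97 to 6.34 in del DBD, 4.96 to 6.45 in MN1-TEL and 4.63 to 5.82 in MN1, and it was not tested. Ash1l, which encodes an H3K36 methyltransferase, has no value.

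**Figure D4:**
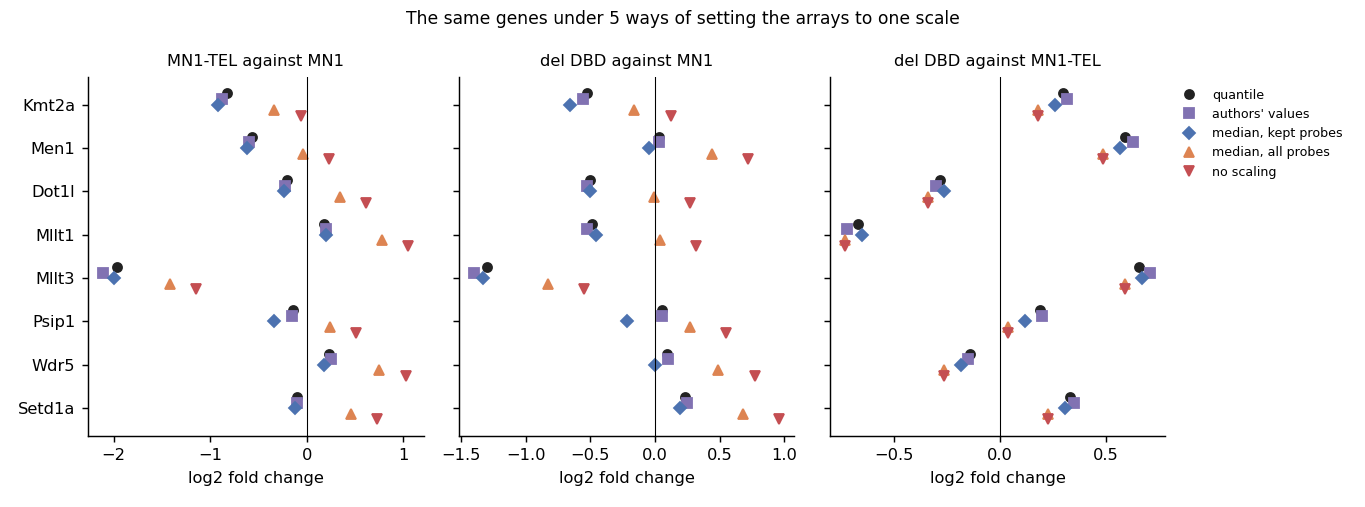
Log2 fold change of the 8 genes in each comparison under quantile normalization, the authors' normalized values, median scaling over kept probes, median scaling over all probes, and no scaling. Mllt3 stays left of 0 against MN1 under each, Men1, Dot1l, Psip1 and Setd1a cross 0 in MN1-TEL against MN1 and Kmt2a, Men1, Dot1l, Mllt1 and Psip1 cross it in del DBD against MN1, and Wdr5 reaches 0 there, while no gene crosses 0 in del DBD against MN1-TEL.

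The comparison of del DBD with MN1-TEL, whose arrays were similarly bright, depended least on the scaling. In it the signs of all 8 genes were the same under the 5 scalings plotted, and Mllt1 at -0.73 to -0.65, Men1 at 0.49 to 0.63 and Mllt3 at 0.59 to 0.71 stayed the members that differed most. Against MN1, of the called falls only those of Mllt3, and that of Kmt2a in MN1-TEL, kept their sign under all 5. Of the values that did not pass against MN1 with quantile normalization, Mllt1 (0.18 to 1.05) and Wdr5 (0.18 to 1.03) in MN1-TEL and Setd1a (0.19 to 0.96) in del DBD were above 0 under all 5.

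Other genes of the pathway were read from 5 lists at 1 probe per gene. The first list held COMPASS subunits, the partners of MLL and SET1, together with other H3K4 methyltransferases such as Smyd3, and 17 of its 20 genes were measured. In MN1-TEL against MN1, 2 of them fell and none rose, Smyd3 at -0.78 (adjusted p = 0.0184) and Bod1l at -0.38 (adjusted p = 0.0398), and with median scaling none fell and 10 rose. With del DBD against MN1, limma called 0 of 17, and 2 had an unadjusted p under 0.05, while with median scaling 9 rose. Between del DBD and MN1-TEL, Smyd3 rose in del DBD by 0.86 (adjusted p = 0.0239) and Cxxc1, the CpG-binding subunit of SET1 complexes, fell by 0.36 (adjusted p = 0.0236). Of the list named for the super elongation complex and DOT1L partners, which also takes in Mllt11, Yeats2 and Yeats4, 11 of 18 were measured. The elongation genes Aff1, Aff4, Ell, Cdk9, Ccnt1 and Ccnt2 passed in no comparison with quantile normalization. Mllt11 in MN1-TEL against MN1 was at -0.66 (adjusted p = 0.00159), Yeats2 at -0.37 (adjusted p = 0.0214) and Yeats4 at 0.32 (adjusted p = 0.0382), and with median scaling 8 rose and none fell. With del DBD against MN1, limma called 0 of 11, and 3 had an unadjusted p under 0.05, while with median scaling 6 rose. Mllt11 alone passed in del DBD against MN1-TEL, at 0.48 (adjusted p = 0.0187), a call lost with median scaling (0.37, adjusted p = 0.0693). The called shares in the 3 comparisons were 11.8%, 0% and 11.8% of the COMPASS list and 27.3%, 0% and 9.09% of the elongation list, against 52.2%, 34.0% and 26.0% of all genes.

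Of the H3K4 and H3K36 demethylases and H3K36 methyltransferases, 14 of 16 were measured. Kdm5b, an H3K4 demethylase, averaged 9.67 ± 0.08 in del DBD, 7.67 ± 0.15 in MN1-TEL and 10.19 ± 0.12 in MN1 (SD, n = 3 each). It fell in MN1-TEL against MN1, at -2.52 (SE 0.12, adjusted p = 5.09e-07), and rose in del DBD against MN1-TEL, at 2.00 (adjusted p = 1.22e-05). Its difference of -0.52 in del DBD against MN1 (adjusted p = 0.00938) was lost with median scaling (-0.06, adjusted p = 0.746). Kdm1a (LSD1), another H3K4 demethylase, was at -0.87 (adjusted p = 0.000107) in MN1-TEL against MN1 and -0.41 (adjusted p = 0.013) in del DBD against MN1, where del DBD lost its call with median scaling (-0.21, adjusted p = 0.197). Hdgfl2, a reader of methylated H3K36, was at -0.47 (adjusted p = 0.00345) in MN1-TEL and -0.29 (adjusted p = 0.0487) in del DBD against MN1, both lost with median scaling (-0.15 and -0.13). Nsd3, an H3K36 methyltransferase, was higher in MN1-TEL (0.40, adjusted p = 0.0183) and in del DBD (0.48, adjusted p = 0.0126) than in MN1. Kdm4b was at -0.96 (adjusted p = 0.000225) in MN1-TEL against MN1 and 0.80 (adjusted p = 0.00181) in del DBD against MN1-TEL. In all, 2 of 14 rose and 6 fell in MN1-TEL against MN1 (5 rose and 3 fell with median scaling), 1 rose and 3 fell in del DBD against MN1 (3 and 0), and 3 rose and 0 fell in del DBD against MN1-TEL (2 and 1). The called shares of 57.1%, 28.6% and 21.4% lay near the 52.2%, 34.0% and 26.0% of all genes. Of the MOF complex genes, which acetylate H4K16 on histone H4 and bind MLL, 8 of 9 were measured. Of these, 1 rose and 5 fell in MN1-TEL against MN1 (2 and 0 with median scaling), among them Kat8, the acetyltransferase itself, at -0.57 (adjusted p = 0.00336), Phf20 at -0.43, Kansl2 at -0.42 and Msl2 at -0.48, which with median scaling were at -0.01, 0.12, -0.07 and 0.04. The Msl2 probes disagreed, since ILMN_1243234 and ILMN_2541591 were higher in MN1-TEL than in MN1 (1.47, adjusted p = 0.000323, and 0.97, adjusted p = 0.00212). Kat8 in del DBD against MN1 was at -0.48 (adjusted p = 0.0134) and Msl1 at 0.74 (adjusted p = 0.0139), and with median scaling 4 rose and none fell. Phf20 alone passed in del DBD against MN1-TEL, at 0.47 (adjusted p = 0.0245), and with median scaling none did. The called shares of this list were 75.0%, 25.0% and 12.5% in the 3 comparisons, against the same 52.2%, 34.0% and 26.0% of all genes.

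**Figure D5:**
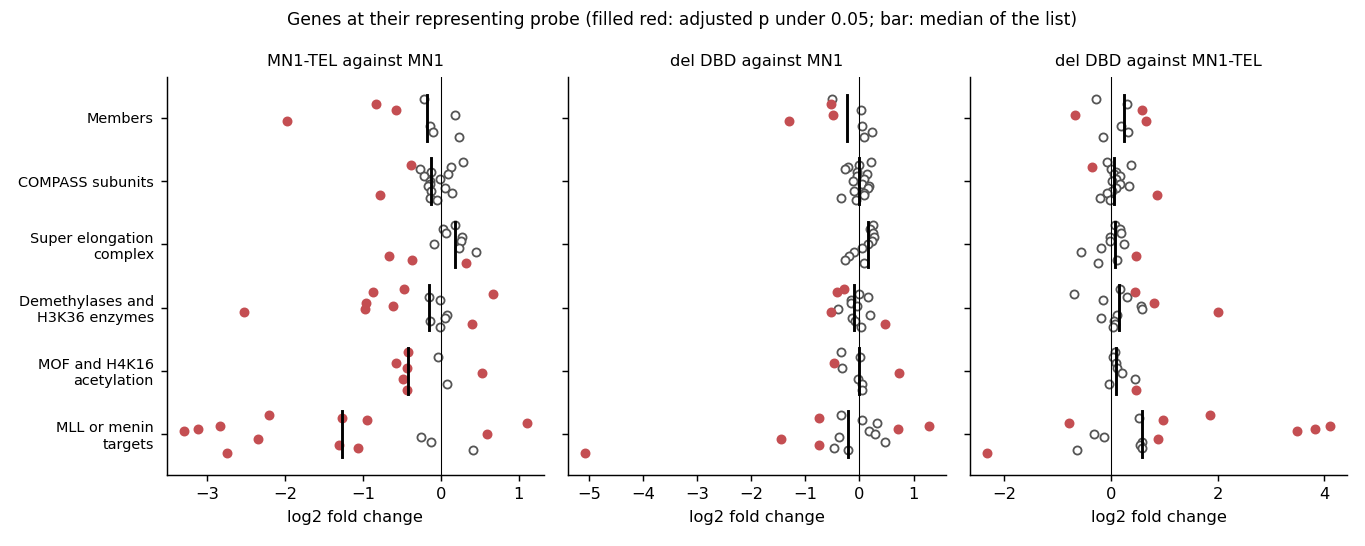
Log2 fold change of each measured gene of the 8 members and of 5 related lists, for MN1-TEL against MN1 (left), del DBD against MN1 (middle) and del DBD against MN1-TEL (right), with red filled points at an adjusted p under 0.05 and a bar at each list's median. The list of MLL or menin targets spreads widest, with a median of -1.27 in MN1-TEL against MN1. Hoxa9, Zfp521, Cdkn1b, Pbx3 and Msl3 are drawn at fitted values, although each was detected on no array of a group.

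Genes known as targets of MLL or menin were measured in 15 of 21 cases. This list was chosen with earlier results of these data known, so its shares only describe the genes in it. Against MN1, 10 fell in MN1-TEL and 2 rose (9 and 2 with median scaling), so 12 of 15 passed against 52.2% of all genes, with a median of -1.27 beside -0.06 over all genes. The del DBD arrays gave 4 falls and 2 rises against MN1 (2 and 7 with median scaling), a called share of 40.0% near the 34.0% of all genes, with a median of -0.22 that is 0.00 with undetected genes set at their bound. In del DBD against MN1-TEL, 6 rose and 2 fell (7 and 2 with median scaling), or 53.3% against 26.0% of all genes, with a median of 0.59, or 0.55 with undetected genes at their bound. For such a bound, the mean of the brighter group was set over the lowest normalized signal among probes detected on the dimmer group's arrays. An undetected gene with no bound above 0 was given a value of 0. The 0.00 in del DBD against MN1 is such a value, that of Pbx3 (measured at -0.22), and not a bound.

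Hoxa9, the homeobox gene most often named as an MLL target, averaged 8.50 ± 0.48 in del DBD and 8.32 ± 0.19 in MN1, and was not well above background on any MN1-TEL array (measured mean 5.02). It was at least 4.80-fold lower in MN1-TEL than in MN1 (adjusted p = 3.89e-06) and at least 5.44-fold higher in del DBD than in MN1-TEL (adjusted p = 1.72e-05), and del DBD differed from MN1 by 0.18 (adjusted p = 0.572), which passed as higher with median scaling (0.70, adjusted p = 0.0257). Hoxa7 averaged 10.98 ± 0.10 in del DBD, 7.14 ± 0.47 in MN1-TEL and 10.25 ± 0.17 in MN1, and it was lower in MN1-TEL than in MN1 (-3.11, adjusted p = 4.76e-06), higher in del DBD than in MN1 (0.72, adjusted p = 0.0309) and higher in del DBD than in MN1-TEL (3.83, adjusted p = 9.7e-06). Hoxa5, detected on 2 of 3 MN1-TEL arrays, rose in del DBD against both MN1-TEL (4.11, adjusted p = 8.06e-06) and MN1 (1.28, adjusted p = 0.00148). Meis1, the usual partner of Hoxa9, averaged 12.90 ± 0.08 in del DBD, 12.31 ± 0.24 in MN1-TEL and 12.43 ± 0.35 in MN1, and passed in no comparison (adjusted p = 0.617 in MN1-TEL and 0.0917 in del DBD against MN1, and 0.0518 between del DBD and MN1-TEL). Pbx3 passed in none, and Hoxa10 was not kept.

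Mef2c, a transcription factor of the same program, averaged 10.76 ± 0.11 in del DBD, 9.87 ± 0.21 in MN1-TEL and 12.22 ± 0.18 in MN1. Its order of groups was that of Mllt3, and the falls against MN1 were -2.35 in MN1-TEL (adjusted p = 2.61e-06) and -1.46 in del DBD (adjusted p = 9.11e-05). Bcl2, a survival gene, was at -2.20 in MN1-TEL against MN1 (adjusted p = 3.3e-06) and 1.86 in del DBD against MN1-TEL (adjusted p = 4.73e-05). Zfp521 was not well above background on any del DBD array and was at least 16.5-fold lower there than in MN1 (adjusted p = 1.36e-06). It was also lower in MN1-TEL than in MN1 (-2.75, adjusted p = 2.8e-05). Myb, a regulator of blood progenitors that is also among the progenitor markers, was lower in MN1-TEL than in MN1 (-1.30, adjusted p = 0.000366). Median scaling kept that call (-0.79, adjusted p = 0.00233). In del DBD against MN1, Myb was at -0.75 (adjusted p = 0.0126), a call lost with median scaling (-0.23, adjusted p = 0.283). Hoxa genes and Mllt3 ranked the groups differently, in that Hoxa5 and Hoxa7 were highest in del DBD, and Mllt3 was highest in MN1.

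The genes whose levels ran most like a member's over the 9 arrays were found by Pearson's r, as a description over points that share groups, scaling and 3 arrays each. For Kmt2a they were Myl6b (0.992), Bag6 (0.990) and Aebp2 (0.986), and for Men1 Zmynd8 (0.985), Lonp1 (0.980) and Pdha1 (0.969). For Dot1l they were Ccdc124 (0.974), Angpt1 (0.950) and Usp19 (0.938). For Mllt3, looked up after its values were seen, they were Wipi1 (0.988), Slc2a3 (0.987) and Myo1e (0.987).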

How the data were processed

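Expression was measured on 9 arrays, 3 per construct, grouped by the sample titles. The authors deposited raw intensity per probe and array, with a detection p-value beside each per the file headers. They also deposited normalized intensity values, background-subtracted and normalized between arrays as judged from the values. Per the submitters' processing notes the tool was GenomeStudio 2010.3, and no source used here states other steps. The raw values were background-corrected with an offset of 16 (nec), quantile normalized (normalizeBetweenArrays) and then taken to log2, with limma 3.58.1 in R 4.3.3. Of the probes, 34885 had 1 symbol in the platform annotation, 18 had several and 10378 had none. Of those with 1 symbol, 34807 were matched through Entrez identifiers to a RefSeq gene, whose symbol was used. A gene was read at its kept probe with the highest mean. A linear model over all 9 arrays (6 residual degrees of freedom) gave two-sided moderated tests, adjusted by Benjamini-Hochberg over 15870 kept probes, and the steps were tested on simulated data. Named genes were all members, up to 4 called genes per list and comparison by adjusted p, Hoxa9, Hoxa10, Meis1, Pbx3, and 3 genes most like Kmt2a, Men1 and Dot1l. The members and lists were chosen with earlier results of these data known.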

Additional observations from a re-analysis of the deposited data

How the results depend on the processing

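In all, 23 alternatives were run, of which no scaling between arrays and median scaling over kept probes were chosen after seeing the data. Over members and their other probes, 810 values kept their side of the threshold, 25 passed only in the alternative, 22 passed no longer and 10 turned in sign with a call before or after the turn. Sign turns between values that passed in neither setting count among the 810. The replicate block gave 7342, 4429 and 3271 called probes and 3, 3 and 3 called members in MN1-TEL and in del DBD against MN1 and in del DBD against MN1-TEL, and changed no member's call. Same-numbered arrays correlated at -0.221 to 0.26 after removing group means. Arrays of different numbers were not set beside them, so whether same-numbered arrays share a batch cannot be told from these values. Called probes in MN1-TEL against MN1 numbered 4995 with 1 probe per gene and 4892 with the mean of probes, where fewer features are tested, against 7743. They numbered 3273 with the mean of probes and 10698 with no scaling in del DBD against MN1, against 4989. Called members in MN1-TEL against MN1 numbered 5 with median scaling and 6 with no scaling, and in del DBD against MN1 5 with no scaling, against 3. Leaving out 1 array gave 6413 to 9012, 3441 to 6555 and 2462 to 4958 called probes and 2 to 3, 2 to 4 and 1 to 4 called members in the 3 comparisons. With median scaling the called split in MN1-TEL against MN1 was 7318 higher and 1571 lower, against 3657 and 4086, and in del DBD against MN1 6155 and 808, against 2474 and 2515. With a call in either setting, signs turned with median scaling for Setd1a (0.46), Bod1l (0.17), Yeats2 (0.19), Phf20 (0.12) and Msl2 (0.04) in MN1-TEL against MN1, and for Mllt1 (0.04), Bod1l (0.51) and Msl2 (0.49) in del DBD against MN1. Msl2 turned with the mean of probes in MN1-TEL against MN1 (0.40). With no scaling, Men1 (0.23), Dot1l (0.61), Psip1 (0.51), Setd1a (0.73), Kmt2a at ILMN_1222137 (0.14) and Men1 at ILMN_2837476 (0.57) turned in MN1-TEL against MN1, and Kmt2a (0.12) and Mllt1 (0.32) in del DBD against MN1. The MN1 arrays were dimmer, and the cause of that was not tested.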
